A study of Mus musculus with 10 samples.

Results

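The genes described here are 10 targets of the transcription factor NRF2 among the 13578 genes measured in the somatic cells of gonads from female mouse embryos, 1 embryo per sample. They were given as a list (Slc7a11, Me1, Abcc1, Gclc, Gclm, Nqo1, Hmox1, Srxn1, G6pdx and Gsr), and each of the 10 had a value in every embryo and passed the minimum on low values. The study asks how the maternal supply of vitamin C acts on the embryonic gonad. The vitamin was withdrawn during the first 2 weeks of gestation for 5 embryos and supplied at physiological levels for 5 embryos. All 10 embryos were female, at embryonic day 13.5, Gulo-/- and on a C57BL/6 background, so both groups lacked the last enzyme of vitamin C synthesis and depended on the diet. Cells negative for Oct4, a germ cell factor, were sorted from the gonads, and RNA was measured by RNA sequencing from 2 ng of total RNA. Expression is given as rlog values computed by the authors, a log2 scale on which genes with few reads are shrunk towards their average, so that differences of weak genes can be understated. Differences are withdrawn minus supplied, ± marks the SD over n = 5 embryos, and a gene was called when its limma adjusted p was under 0.05.

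NRF2, the product of Nfe2l2, is held at a low level by KEAP1, which hands it to a ubiquitin ligase. Oxidants and electrophiles modify KEAP1, and NRF2 then builds up and binds antioxidant response elements with a small MAF protein, while BACH1 competes for the same sites. Its targets import cystine, make and recycle glutathione, supply NADPH, and remove quinones, haem and peroxides. Vitamin C is itself a reductant, and its oxidised form can be recycled with glutathione.

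Of the supporting cells of the fetal ovary, all 14 pregranulosa marker genes were measured, with a mean rlog of 10.66 to 10.78 in withdrawn and 10.65 to 10.83 in supplied embryos. Genes of other cell types were also measured, which does not by itself show that those cells were present. Of 20 germ cell genes 6 were measured, with means of 6.85 to 7.04 in withdrawn and 7.01 to 7.19 in supplied embryos, and the lowest p was that of the meiotic gene Rec8 (difference -0.48, limma adjusted p = 0.065). The 15 endothelial genes had means of 8.56 to 8.69 in withdrawn and 8.63 to 8.81 in supplied embryos (Eng -0.39, limma adjusted p = 0.210). The 14 stromal genes had means of 12.09 to 12.28 in withdrawn and 11.95 to 12.20 in supplied embryos (Dcn 0.24, limma adjusted p = 0.879). Of the stromal genes 13 had a difference above 0, with a median of 0.085, and of the endothelial genes 11 were below 0, where 49.8% of all genes were below 0. At an unadjusted limma p under 0.05, 4 stromal genes were higher and 3 endothelial genes lower (5.3% of all genes in either direction). The part of other cell types in the results below was not tested. Gulo was not analysed here. Sample medians lay between 9.12 and 9.14, and the read depth behind the values is unknown. Fos and other immediate early genes were high in withdrawn embryos 2 and 3 and supplied embryo 4, with mean rlog values from 9.15 to 10.45 in withdrawn and from 9.31 to 10.43 in supplied embryos. Embryos 2 and 3 of each group share a number in their titles. Nothing states whether such embryos are litter mates, and the p-values reflect no more than the variation among these 10 samples, which may be partly technical. In cell populations of this kind, fewer cells of a type and less RNA per cell cannot be told apart.

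Promoter sequences from RefSeq (build GRCm38.p6), matched by gene symbol, were used for 6 of the 10 genes, namely Slc7a11, Me1, Gclm, Nqo1, Srxn1 and G6pdx. Those of Abcc1, Gclc, Hmox1 and Gsr were not analysed here. The sequences below are shown because they hold letters of elements through which such genes are known to be controlled, and they are written on the strand of the gene. Those of Slc7a11 and Me1 run from 250 bases before the annotated start to 20 bases after it, and for Gclm, G6pdx and Srxn1 a stretch of 30 bases around the match is given. Capitals mark matches to TGATGNAA, the core of the amino acid response element that ATF4 binds, in Slc7a11, and to TGACNNNGC, the core of the antioxidant response element, in Me1. Both motifs were searched on both strands of windows of 300 bases.
Slc7a11, chr3:50443594-50443863, - strand: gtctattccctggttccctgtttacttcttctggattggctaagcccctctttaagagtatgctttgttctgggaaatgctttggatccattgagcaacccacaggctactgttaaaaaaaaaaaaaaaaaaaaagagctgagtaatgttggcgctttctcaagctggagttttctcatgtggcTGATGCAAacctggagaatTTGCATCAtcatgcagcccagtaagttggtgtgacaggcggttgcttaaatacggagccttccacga
Me1, chr9:86695895-86696164, - strand: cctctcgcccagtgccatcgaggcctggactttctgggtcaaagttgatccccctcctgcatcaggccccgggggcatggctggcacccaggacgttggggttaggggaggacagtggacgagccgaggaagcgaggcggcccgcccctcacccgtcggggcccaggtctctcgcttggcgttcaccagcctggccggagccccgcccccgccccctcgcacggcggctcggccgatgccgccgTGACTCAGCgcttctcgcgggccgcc
The Slc7a11 window held the amino acid response core in both orientations, at positions -66 to -59 and -47 to -40 from the start, and held no match to TGACNNNGC. Of 32851 promoter windows, 3.97% held TGATGNAA and 0.07% held it in 2 or more places. In Me1 the antioxidant core lay across the start, from position -6 to position 3, and a second annotated start of Me1 had no match. The next genes held TGACNNNGC, on the opposite strand, so that the capitals below read as its reverse complement.
Gclm, chr3:122245412-122245441, + strand: cgctcccgggcGCACCGTCAactctcacga
G6pdx, chrX:74428919-74428948, - strand: gaggcgggtcaGCTCAGTCAaagcacacgc
Srxn1, chr2:152105541-152105570, + strand: ggcagtgggcaGCTAGGTCAgagtgagaca
The matches began at positions -134 in Gclm, -57 in G6pdx and 29 in Srxn1. In all, 4 of the 6 genes with a window held TGACNNNGC, and 1 of 6 held TGATGNAA. These are counts of genes, and the 6 genes had 7 windows, as Me1 had a second one. Counted by window, 12.4% of all windows held TGACNNNGC. Nqo1 held neither in this window. A match in these letters is a description and not a binding site.

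Slc7a11, the cystine transporter that limits glutathione synthesis in many cells, was lower in every withdrawn embryo than in every supplied embryo. Its rlog values were 6.364, 6.285, 6.348, 6.377 and 6.278 in withdrawn embryos 1 to 5, and 6.383, 6.576, 6.529, 6.485 and 6.515 in supplied embryos 1 to 5. The groups met closely, with supplied embryo 1 only 0.0054 above withdrawn embryo 4. The means were 6.33 ± 0.046 in withdrawn and 6.50 ± 0.072 in supplied embryos, a difference of -0.17 (SE 0.0381, 95% interval -0.25 to -0.087), or 0.891-fold on the rlog scale. Slc7a11 had the 20th smallest p among the 13578 genes and was not called (limma adjusted p = 0.281, with 0.00041 before adjustment). The exact two-sided permutation test of its means gave p = 0.00794, the smallest that 5 against 5 embryos allow. Any gene whose groups do not overlap gets this value, so it adds nothing to the lack of overlap. Only 13.7% of genes had a lower mean rlog value than Slc7a11. Slc3a2, the heavy chain that carries SLC7A11 to the cell surface, stood at 10.59 ± 0.080 in withdrawn and 10.59 ± 0.053 in supplied embryos, with a 95% interval of the difference from -0.091 to 0.11.

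None of the 10 genes was called in either direction (0 of 10). Over all genes measured, 0.0221% were called lower and 0% called higher in withdrawn embryos. At an unadjusted limma p under 0.05, Slc7a11 and Me1 were lower and none was higher, so 2 of 10 (5.3% of all genes in either direction, 2.84% lower and 2.45% higher). The groups did not overlap in 1 of the 10 genes, Slc7a11, where it was lower in withdrawn embryos, against 0.81% of all genes in either direction and 0.464% lower. The difference was below 0 in 8 of the 10 genes, with a median of -0.021, where 49.8% of all genes were below 0 with a median of 0.00021. The 10 genes were chosen with earlier results of these data known, so these counts are given as a description.

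**Figure D1:**
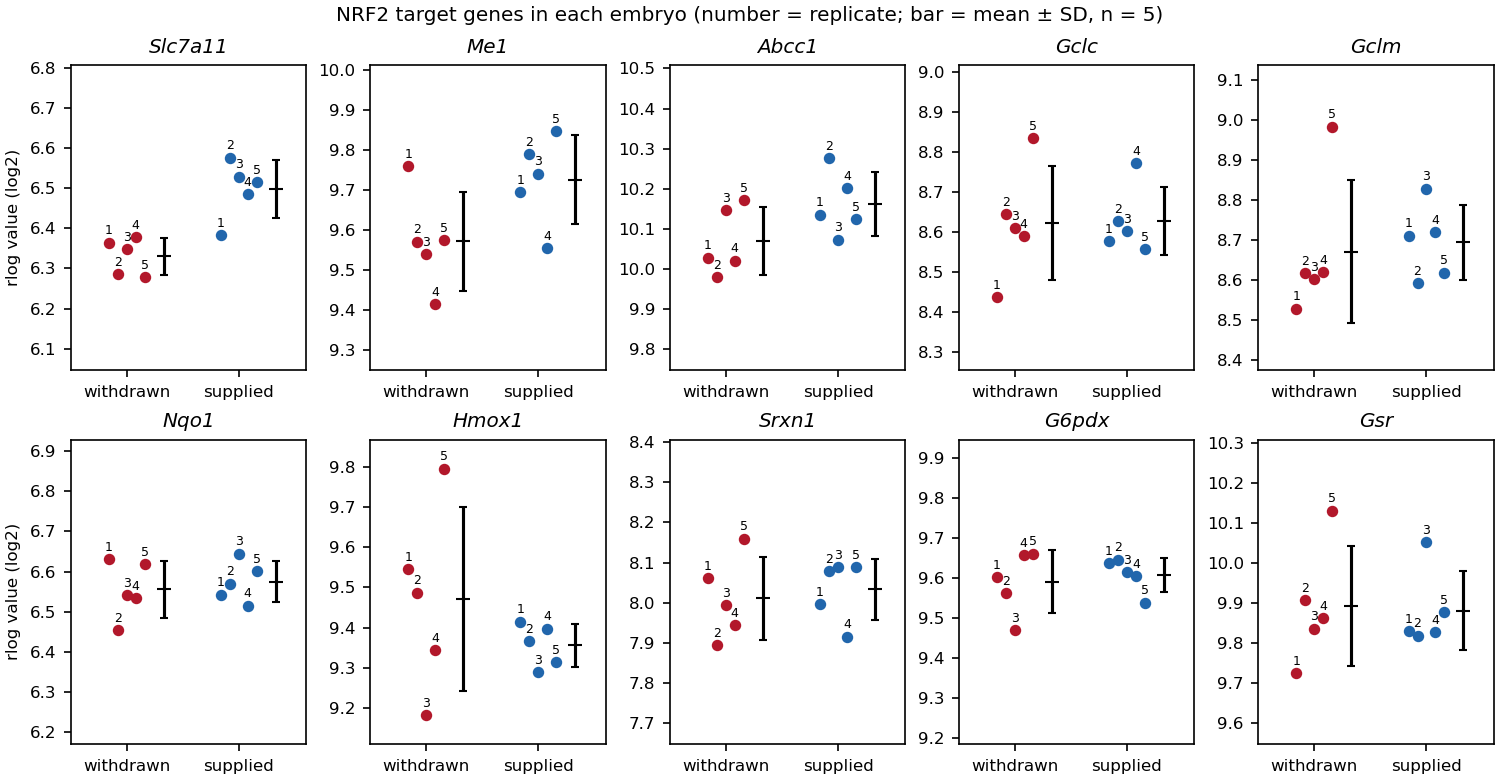
Each panel shows the rlog value (log2 scale) of 1 gene in each embryo, with withdrawn embryos in red on the left and supplied embryos in blue on the right, the replicate number above each point, and the mean ± SD (n = 5) as a bar. All panels span the same range of rlog; only in Slc7a11 do the groups not overlap, and withdrawn embryo 5 is the highest of all embryos in Gclc, Gclm, Hmox1, Srxn1, G6pdx and Gsr.

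The genes of the glutathione-making enzyme did not differ between the groups beyond their spread. Gclc, the catalytic subunit of glutamate-cysteine ligase, had values of 8.44, 8.64, 8.61, 8.59 and 8.83 in withdrawn embryos 1 to 5, and 8.58, 8.63, 8.60, 8.77 and 8.56 in the supplied ones. The means were 8.62 ± 0.14 in withdrawn and 8.63 ± 0.085 in supplied embryos, a difference of -0.0041 with a 95% interval from -0.14 to 0.13. The withdrawn embryos held both the lowest and the highest value. Gclm, the modifier subunit that makes the enzyme efficient, had values of 8.53, 8.62, 8.60, 8.62 and 8.98 in withdrawn embryos, against 8.71, 8.59, 8.83, 8.72 and 8.62 in supplied embryos. Withdrawn embryo 5 stood far above the others, and the remaining 4 withdrawn embryos lay within 0.1 of each other. The difference was -0.024 (95% interval -0.18 to 0.13), and -0.10 without withdrawn embryo 5 (limma adjusted p = 0.881, over other settings up to 0.999).

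Among the genes of NADPH supply and glutathione recycling, Me1 lay lower in the withdrawn embryos, short of the threshold. Me1, the cytosolic malic enzyme that yields NADPH, had values of 9.76, 9.57, 9.54, 9.42 and 9.58 in withdrawn embryos 1 to 5, against 9.70, 9.79, 9.74, 9.56 and 9.85 in supplied embryos. The groups overlapped, since supplied embryo 4 lay below withdrawn embryos 1, 2 and 5. The difference was -0.15 (SE 0.0632, 95% interval -0.29 to -0.020, limma adjusted p = 0.928), and its exact permutation p was 0.0952. An antisense gene, A330041J22Rik, overlaps an exon of Me1 in GENCODE M21, and whether reads were counted by strand is unknown here, so its reads may be included. G6pdx, the entry enzyme of the pentose phosphate pathway, differed by -0.018 (95% interval -0.12 to 0.080), with a lowest, median and highest value of 9.47, 9.60 and 9.66 in withdrawn embryos and 9.54, 9.61 and 9.65 in supplied ones. Gsr, which returns oxidised glutathione to its reduced form, had values of 9.73, 9.91, 9.84, 9.86 and 10.13 in withdrawn embryos and 9.83, 9.82, 10.05, 9.83 and 9.88 in supplied embryos. Withdrawn embryo 5 and supplied embryo 3 stood above the other 8 embryos, and the difference of means was 0.011 (95% interval -0.13 to 0.15).

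Among the detoxifying genes Hmox1 had the difference furthest above 0 of the 10 genes, short of the threshold. Hmox1, the haem oxygenase that breaks haem down to biliverdin, had values of 9.55, 9.49, 9.18, 9.34 and 9.80 in withdrawn embryos 1 to 5, and 9.41, 9.37, 9.29, 9.40 and 9.31 in supplied embryos 1 to 5. The withdrawn embryos spread on both sides of the narrow supplied range. The difference was 0.11 (SE 0.082, 95% interval -0.059 to 0.29, limma adjusted p = 0.977), and it was 0.033 without withdrawn embryo 5 0.19 without withdrawn embryo 3 and 0.22 without the 3 samples of highest Fos, a setting chosen after seeing the data. Nqo1, a quinone reductase, ranged over 6.45, 6.54 and 6.63 (lowest, median, highest) in withdrawn embryos and 6.51, 6.57 and 6.64 in supplied ones, with a difference of -0.019 (95% interval -0.10 to 0.064). Srxn1, which repairs overoxidised peroxiredoxins, ranged over 7.89, 7.99 and 8.16 in withdrawn and 7.92, 8.08 and 8.09 in supplied embryos, with a difference of -0.023 (95% interval -0.14 to 0.092). In both genes the ranges of the groups overlapped. Abcc1, an exporter of glutathione conjugates, had values of 10.03, 9.98, 10.15, 10.02 and 10.17 in withdrawn embryos and 10.13, 10.28, 10.07, 10.20 and 10.12 in supplied embryos. Withdrawn embryos 1, 2 and 4 lay below all supplied ones, and the difference was -0.093 (SE 0.051, 95% interval -0.20 to 0.015, limma adjusted p = 0.956).

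**Figure D2:**
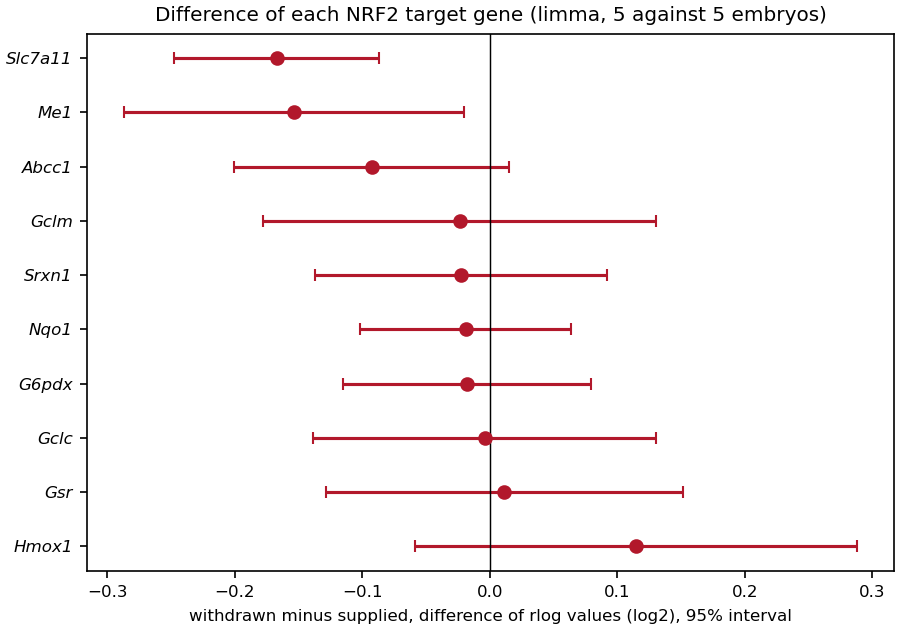
Points give the limma difference of rlog values, withdrawn minus supplied (log2 scale), of each of the 10 genes, and bars its 95% interval (5 against 5 embryos). The intervals of Slc7a11 and Me1 lie below 0, before any adjustment for the 13578 genes, and the other 8 include 0; over all 10 genes the intervals reach from -0.29 to 0.29.

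Withdrawn embryo 5 held the highest value of all 10 embryos in 6 of the 10 genes, although it was the highest embryo in 9.37% of all genes. The 6 were Gclc, Gclm, Hmox1, Srxn1, G6pdx and Gsr, and this pattern was noticed after their values were seen. Against the mean of the other 9 embryos it stood 0.43 higher in Hmox1, 0.33 in Gclm, 0.27 in Gsr and 0.23 in Gclc, deviations that exceeded those of 99.8%, 99.6%, 99.2% and 98.8% of all genes in that embryo. In Slc7a11 the same embryo was the lowest of all 10, 0.15 below the mean of the others, and in Me1 it was 0.082 below. The SD was larger among withdrawn than among supplied embryos in 9 of the 10 genes, all but Slc7a11, against 47.5% of all genes. The ratio of SDs, withdrawn over supplied, was 4.26 in Hmox1 and 1.91 in Gclm, and 0.64 in Slc7a11. Without withdrawn embryo 5 the count was 5 of 10, against 45.7% of all genes.

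Markers of blood cells were also high in withdrawn embryo 5. Of 20 erythroid genes 13 were measured, and their mean rlog ranged from 8.52 to 9.04 in withdrawn embryos, with embryo 5 at 9.04 and the next at 8.65. In supplied embryos it ranged from 8.39 to 9.04, with the top value in embryo 3. Of 18 macrophage genes 15 were measured, and their mean ranged from 7.18 to 7.43 in withdrawn and from 7.21 to 7.43 in supplied embryos, the same 2 embryos on top. The embryos that stood highest in Gsr and Gclm were thus those with the highest erythroid and macrophage means, whereas Hmox1 was at 9.29 in supplied embryo 3, the lowest of the supplied embryos. With the erythroid mean as a covariate the differences were -0.0083 in Gclm, 0.13 in Hmox1 and -0.17 in Slc7a11. With the macrophage mean they were 0.015 in Gclm, 0.15 in Hmox1 and -0.17 in Slc7a11. The part of blood cells in the values of withdrawn embryo 5 was not tested.

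**Figure D3:**
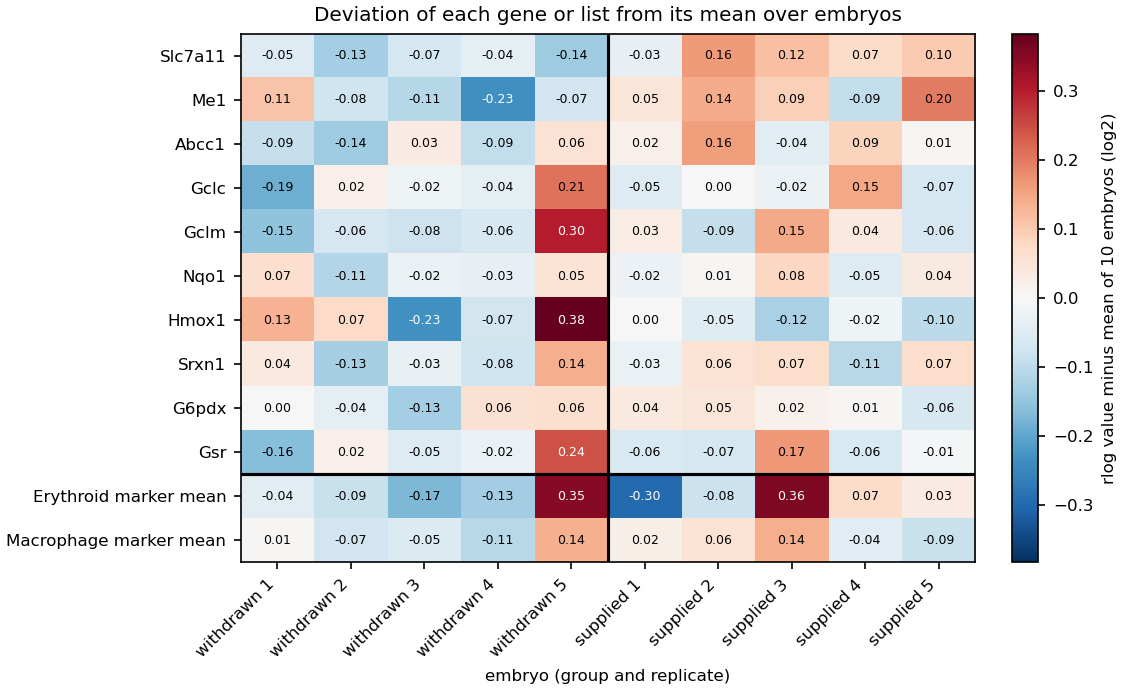
Colours and numbers give the rlog value of each gene, or the mean rlog of the erythroid and macrophage lists, minus its mean over the 10 embryos (log2 scale), with withdrawn embryos on the left and supplied embryos on the right of the line. Withdrawn embryo 5 is highest in 6 of the 10 genes, among them Hmox1, Gclm and Gsr, and is lowest in Slc7a11; supplied embryo 3 is second in Gclm and Gsr.

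Between embryos, the correlations among the 10 genes differed widely from pair to pair, from r = -0.55 for Me1 with Gclc to 0.90 for Gclm with Gsr. With 10 embryos, a pair short of the threshold is not shown to vary independently. After removal of the group means, Gclc and Gclm, the 2 subunits of 1 enzyme, had a Pearson r of 0.74 (exact permutation p = 0.058) and a Spearman rho of 0.54 (exact permutation p = 0.127) over 10 embryos. Without the 2 embryos farthest in Gclc, withdrawn 1 and 5, r was 0.16, though leaving them out also narrows the range. With all embryos kept, r was 0.92 among withdrawn and 0.15 among supplied embryos. Slc7a11 had r values from -0.44 with Hmox1 to 0.31 with Nqo1 over the other 9 genes, and in this family of 10 relations the smallest adjusted p was 0.579 by Pearson and 0.52 by Spearman (exact permutation). Over all 45 pairs, a family chosen after seeing the data, 34 had r above 0 with a median r of 0.21, and 0 passed after adjustment (2 at an unadjusted Pearson p under 0.05 and 4 by Spearman, exact permutation). The closest pairs were Gclm with Gsr and Nqo1 with Srxn1. Gclm and Gsr had r = 0.90 and rho = 0.72 (exact permutation p = 0.0053 and 0.030, adjusted p = 0.119 and 0.335), and r fell to 0.45 without supplied embryo 3 and withdrawn embryo 5. Nqo1 and Srxn1 had r = 0.88 and rho = 0.87 (exact permutation p = 0.0033 and 0.0043, adjusted p = 0.119 and 0.194). Without the 2 embryos farthest in Nqo1, withdrawn 1 and 2, r of that pair was 0.89. The embryos farthest in Srxn1, supplied 4 and withdrawn 5, were kept there, so the pair was not tested without them. It had r = 0.89 among withdrawn and 0.86 among supplied embryos.

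With the erythroid mean, Gsr had r = 0.79 and rho = 0.52 (exact permutation p = 0.0225 and 0.152, adjusted p = 0.256 and 0.625) and Gclm r = 0.74 and rho = 0.43 (exact permutation p = 0.0376 and 0.252, adjusted p = 0.256 and 0.625). Without supplied embryo 3 and withdrawn embryo 5, the 2 farthest in that mean, these r values were -0.033 and -0.25. Leaving out the farthest embryos narrows the range, which can itself lower r. With all embryos kept, r was 0.82 among withdrawn and 0.83 among supplied embryos for Gsr, and 0.92 and 0.57 for Gclm. Slc7a11 had r = 0.12 with the same mean (rho = -0.055, exact permutation p = 0.756 and 0.885, adjusted p = 0.841 and 0.898). With the macrophage mean, Srxn1 had r = 0.70 and rho = 0.50 (exact permutation p = 0.038 and 0.166, adjusted p = 0.256 and 0.625), and r = 0.39 without the same 2 embryos. In the family of 20 relations with both means, 0 passed after adjustment, with 3 at an unadjusted Pearson p under 0.05 and 0 by Spearman. Of these 20, 19 had r above 0 over all 10 embryos. Several fell below 0 without those 2 embryos, such as Gsr with the macrophage mean, from 0.63 to -0.67.

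**Figure D4:**
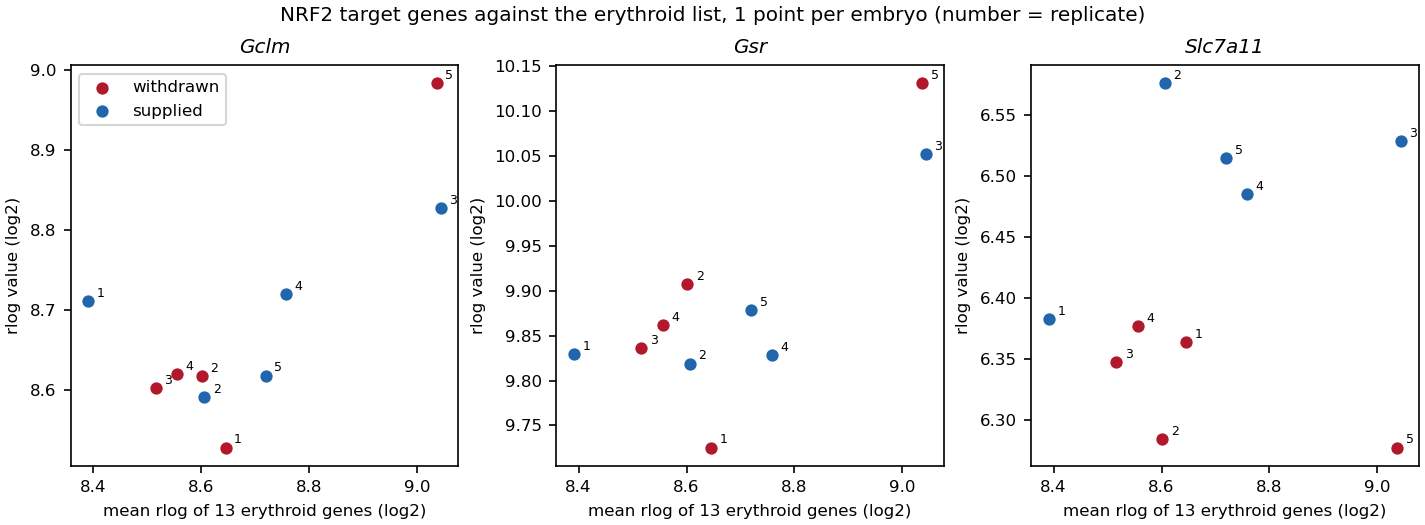
Rlog values (log2 scale) of Gclm, Gsr and Slc7a11 are plotted against the mean rlog of 13 erythroid genes, with 1 point per embryo, red for withdrawn and blue for supplied, and the replicate number beside it. Withdrawn embryo 5 and supplied embryo 3, both at 9.04 on the horizontal axis, are the highest in Gclm and Gsr and lie far apart in Slc7a11, at 6.278 and 6.529.

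The regulators of NRF2 did not differ between the groups beyond their spread, and 0 of 17 measured genes had an unadjusted p under 0.05 (5.3% of all genes). Nfe2l2 stood at 10.36 ± 0.098 in withdrawn and 10.37 ± 0.076 in supplied embryos, a difference of -0.0075 with a 95% interval from -0.12 to 0.10. Keap1, its inhibitor, differed by 0.00043 (95% interval -0.090 to 0.091) and the repressor Bach1 by 0.034 (-0.076 to 0.14). Of the 17 genes 14 had a difference above 0, with a median of 0.012, where 49.8% of all genes were below 0. The smallest p-values belonged to Bach2, a relative of Bach1, at 0.086, to Sqstm1, the autophagy receptor that binds KEAP1, at 0.072, and to the ubiquitin ligase gene Trim21 at -0.069 (limma adjusted p = 0.947, 0.962 and 0.963).

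Among 36 measured genes of a wider list of NRF2 targets, 0 were called. At an unadjusted limma p under 0.05 there were 2, 1 in each direction, where 5.3% of all genes had such a p. Akr1b8, an aldo-keto reductase, stood at 8.66 ± 0.094 in withdrawn and 8.83 ± 0.095 in supplied embryos, a difference of -0.17 (SE 0.0561, limma adjusted p = 0.900), with overlapping groups. Slc40a1, the iron exporter ferroportin, stood at 9.87 ± 0.14 in withdrawn and 9.72 ± 0.033 in supplied embryos, a difference of 0.15 (SE 0.0572, limma adjusted p = 0.928). All withdrawn embryos lay above all supplied ones, as 1 of the 36 genes without overlap, against 0.81% of all genes. The groups met closely, with withdrawn embryo 2 at 9.769 and supplied embryo 5 at 9.753, and withdrawn embryo 1 stood apart at 10.105. Txnrd1, the cytosolic thioredoxin reductase, differed by -0.084 (95% interval -0.20 to 0.028). The list had 19 genes above 0 and 17 below, with a median of 0.0017. In this list the highest embryo was most often withdrawn embryo 1, in 13 of the 36 genes, against 13% of all genes. Withdrawn embryo 5 was the highest in 4 of the 36, against 9.37% of all genes. In the other lists of this report its high values were not confined to the 10 genes. It was the highest in 8 of 29 genes of the ATF4 list, 4 of 22 glutathione genes, 7 of 15 macrophage and 5 of 13 erythroid genes. It was the highest in 2 of 17 peroxide and superoxide enzymes and 0 of 17 regulators of NRF2.

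Other genes that make or use glutathione had a median difference of -0.023, with 16 of 22 measured genes below 0 (49.8% of all genes) and 0 called. Of the 22, 1 had an unadjusted limma p under 0.05, against 5.3% of all genes. It was Ggt7, a member of the gamma-glutamyltransferase family (difference -0.064, SE 0.0234, limma adjusted p = 0.900). Oplah, the 5-oxoprolinase of the gamma-glutamyl cycle, differed by -0.082 (limma adjusted p = 0.961) and the glutaredoxin gene Glrx3 by 0.061 (limma adjusted p = 0.962). Of 17 enzymes that act on peroxide, superoxide or oxidised methionine 0 were called. Only 1, Sesn1, had an unadjusted limma p under 0.05 (5.3% of all genes in either direction), higher in withdrawn embryos. The list had 7 genes above 0 and 10 below, with a median of -0.0080. Sesn1, a sestrin, had a difference of 0.11 (SE 0.0426, limma adjusted p = 0.928), beside Prdx4, the peroxiredoxin of the endoplasmic reticulum, at 0.085 and the methionine sulfoxide reductase Msra at -0.040.

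Slc7a11 is also a known target of ATF4, the effector of the amino acid response, whose core motif its promoter holds in the sequence above. Of 29 measured genes of an ATF4 list, which holds Atf4 itself, 0 were called and 0 had an unadjusted p under 0.05 (5.3% of all genes). Their median difference was -0.013, with 17 below 0 and 12 above. Atf4 stood at 11.85 ± 0.16 in withdrawn and 11.84 ± 0.18 in supplied embryos (difference 0.014, 95% interval -0.16 to 0.19), and it was highest in supplied embryo 4, where the immediate early genes were also high. The smallest p-values were those of the aminoacyl-tRNA synthetase genes Yars (0.083) and Aars (-0.083) and of Psat1, an enzyme of serine synthesis (-0.12), with limma adjusted p = 0.931, 0.963 and 0.961.

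**Figure D5:**
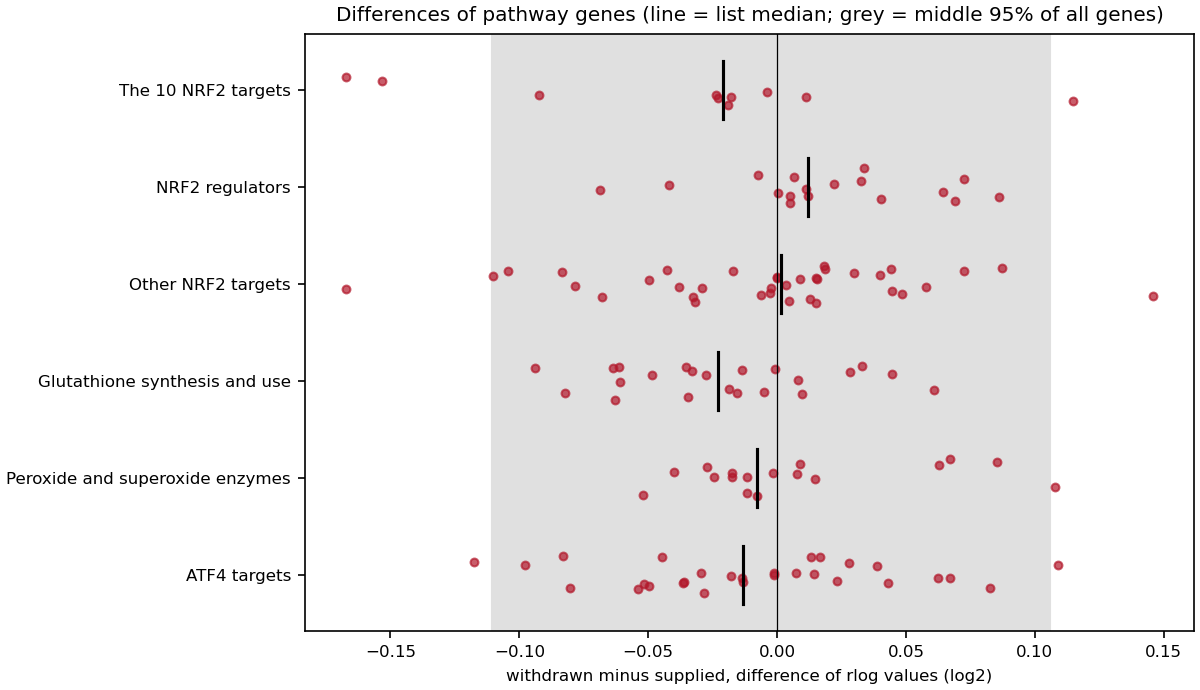
Each point is the difference of rlog values, withdrawn minus supplied (log2 scale), of 1 gene in 6 lists, with the list's median as a black line and the middle 95% of all 13578 genes, from -0.11 to 0.11, in grey. Slc7a11 and Me1 on the lower side and Hmox1 on the higher side lie outside the grey band, as do Akr1b8 and Slc40a1 of the wider target list among others, and the list medians lie between -0.023 and 0.012.

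The genes whose group-centred values ran most closely with Slc7a11 over the 10 embryos were Fam188a, Zfml, Gm5887, Fem1c and Mudeng, with Pearson r of 0.95, 0.94, 0.93, 0.92 and 0.92. These are the 5 highest of the whole table and are given as a description. The difference between groups in these 5 genes was between -0.068 (Fem1c) and 0.051 (Mudeng), and in each of them the 95% interval included 0. None of the other 9 NRF2 targets was among them, the highest r with Slc7a11 being 0.31 for Nqo1.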

How the data were processed

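RNA sequencing of 5 withdrawn and 5 supplied samples was analysed. The deposited values are rlog values (log2 scale) per gene, in 1 table by the authors. DESeq2 1.20.1, TopHat2 2.1.1 and Trim Galore 0.4.0 are named in the submitters' processing notes, with build mm9. The sources used here do not name the counting program or say whether it used strand. Read depth is unknown, so no counting interval or count model was used.

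All 13578 genes (mean rlog of at least 3, which removed 0) were fitted with limma 3.58.1 in R 4.3.3, with a variance trend, no covariate, and Benjamini-Hochberg adjustment over all genes. The test was tried on simulated data. Correlations used group-centred values and all 14400 orders within groups, in place of the random resampling first set out. Where 2 embryos were left out, the values stayed centred on the group means of all 10 embryos. The 10 genes and the lists were chosen with earlier results of these data known. Named were the 10 genes, the 3 genes of smallest p in each other list, 6 fixed genes (Nfe2l2, Keap1, Bach1, Slc3a2, Txnrd1 and Atf4) and the 5 genes most like Slc7a11; A330041J22Rik was named for its overlap. Lists of cell type markers are given mainly by their means. Promoters came from RefSeq (GRCm38.p6), matched by symbol, and overlaps from GENCODE M21, another build than the table's. No 2 samples had equal values (0% of genes). Alternatives were other filters, variance models, scalings and sample weights, the replicate block, averaging by title number, covariates, exact permutation and leaving out samples.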

Additional observations from a re-analysis of the deposited data

Results flagged for a closer look

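In groups of 5 embryos a value was listed when its gap to the nearest other embryo exceeded 0.71 of the group's range. Of 136 groups looked at 14 met this, and chance gives about 1 in 20. Among the NRF2 targets, Gclm was at 8.9827 in withdrawn embryo 5, with the next withdrawn embryo at 8.6202, and Gsr was at 10.052 in supplied embryo 3, with the next at 9.8782. In withdrawn embryo 5 the erythroid mean was 9.0371 (next 8.6462), the erythroid gene Hemgn 6.7649 (next 6.5065) and the germ cell gene Tfap2c 4.8315 (next 4.6816). In withdrawn embryo 1 Slc40a1 was at 10.105 (next 9.8484) and the endothelial mean was the lowest at 8.5603 (next 8.657), and in withdrawn embryo 4 Sqstm1 was the lowest at 11.638 (next 11.744). Supplied embryo 4 was the highest in Egr3 at 7.5944, Jund at 12.76, Atf4 at 12.154 and the immediate early mean at 10.433. In supplied embryo 5 Ggt7 was the lowest at 5.0028 and Oplah the highest at 9.799. Without supplied embryo 5 or 3 and without withdrawn embryo 5, in turn, 0 of the 10 NRF2 targets were called by limma.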

How the results depend on the processing

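The count of called NRF2 targets was 0 under all 23 other settings run on it. Slc7a11 kept its direction under all 24 of its settings, between -0.20 and -0.15, and stayed short of the threshold (limma adjusted p between 0.137, without supplied embryo 1, and 0.999, without the 3 samples of highest Fos). Me1, Abcc1 and Hmox1 also kept their direction under all 24. The filters, variance models, replicate block and exact permutation leave a difference of means unchanged, so these settings could not test direction. The setting with no filter repeats the main fit, since the filter removed 0 genes. With the replicate number as a block the Slc7a11 difference was -0.17 (limma adjusted p = 0.803). Embryos of the 2 groups with the same replicate number deviated together with correlations from -0.364 to 0.172, and 0 of 5 correlated best with their own number. Embryos with the same replicate number also share a title number across the groups, so these values cover pairs with a shared title number too. What the title numbers stand for is not stated, and whether samples shared a litter or were paired was not tested.

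Over all genes 3 were called, 1 with no variance trend, with quantile normalization or with title numbers averaged, 5 with robust variance or sample weights, and 12 with the immediate early mean as a covariate (this setting and the one without the 3 samples of highest Fos were chosen after seeing the data); leaving out 1 embryo gave 0 to 4, with 0 without withdrawn embryo 5 or supplied embryo 1 and 1 without withdrawn embryo 2 or 4. The replicate block gave 2. Small differences changed sign and the cause was not tested. Gclc was 0.010 with sample weights, 0.0040 with the erythroid and 0.0094 with the macrophage covariate, 0.030 without the 3 samples of highest Fos, and -0.057 to 0.042 with 1 embryo left out. Gclm was 0.015 with the macrophage covariate, 0.023 without the 3 samples, and -0.10 to 0.012 with 1 left out. With title numbers averaged Nqo1 was 0.0036, Srxn1 0.0064 and G6pdx 0.0062; without the 3 samples Nqo1 was 0.0048 and G6pdx 0.031; with the macrophage covariate Srxn1 was 0.0021. With 1 embryo left out Nqo1 ranged from -0.038 to 0.0062, Srxn1 from -0.060 to 0.0063, G6pdx from -0.035 to 0.012 and Gsr from -0.048 to 0.054. The depth is unknown, and how far the rlog shrank each difference could not be measured.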
